A study of Rattus norvegicus with 42 samples.

Results

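Synaptic vesicles fuse with the plasma membrane through SNARE proteins, and 8 genes of this machinery were followed in the hippocampus of rat pups 72 h after a single dose of an anti-seizure drug. They are Snap25, Stx1a, Vamp1 and Vamp2, which encode the SNAREs themselves, Cplx1, Cplx2 and Cplx3, which encode complexins, and Unc13a, which encodes a priming factor. Transcripts were taken when their symbol in the deposited count table was one of these 8. All 8 were present, with 10 transcripts among the 15516 transcripts and 14304 gene symbols of the table. Of the 3 Snap25 transcripts, NM_001270575 and NM_030991 carried identical values in every animal and were counted once, which left 9 distinct transcripts. All of them passed the filter on low counts, so no member was lost before testing.

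At rest, the vesicle SNARE synaptobrevin (VAMP) faces the plasma membrane SNAREs syntaxin and SNAP-25, and the zippering of these proteins into a bundle of helices draws the membranes together. Munc13 proteins such as the product of Unc13a open syntaxin and make vesicles ready for release, and complexins bind the assembled bundle, where they hold fusion back and speed it up when calcium arrives through synaptotagmin. In the hippocampus Vamp2 is the main synaptobrevin, Vamp1 serves subsets of neurons, complexin 1 and complexin 2 are known from inhibitory and excitatory terminals in different proportions, and complexin 3 is best known from retinal ribbon synapses and from subplate neurons of the cortex.

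Male Sprague Dawley pups were injected intraperitoneally on postnatal day 7 with saline (VEH), with 75 mg/kg of phenobarbital (PB) or with 200 mg/kg of levetiracetam (LEV). The hippocampi were dissected 72 h later and sequenced with 1 library per animal. The analysis held 13 VEH, 14 PB and 14 LEV animals, since VEH animal 7 is marked as excluded. The pups were wild type, and each litter gave 1 pup per group. The sample codes had 2 forms, with 2 letters for animals 1 to 6 of each group (called the first set here) and 1 letter for animals 7 to 14 (the second set). This form of code served as the batch. The labels mention 2 orders of animals without saying which animals belonged to which order, so what the form stands for is not known.

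Totals lay between 9499492 and 14488134 estimated counts per animal, and the medians of VEH, PB and LEV were 11712468, 11103898 and 11338329. Hippocampal and neuronal markers were present in every animal. The summed level of 6 choroid plexus markers ran from 3.70 to 7317 CPM (counts scaled to a library of fixed size) over the animals, and 0 of the 6 passed between groups in edgeR, also at an unadjusted p under 0.05. The summed level of skeletal muscle markers was 23.4 to 47.5 CPM in the first sets of VEH and LEV, and 6.03 to 14.5 CPM in the other 29 animals, so that these 12 libraries stood apart. The PB values of the members within each set are given below for this reason, and LEV values for some members. The split does not remove the muscle difference within the first set. There the sum was 25.7 to 39.2 CPM in VEH and 10.2 to 14.1 CPM in PB, without overlap. In the second set it was 10.2 to 14.4 CPM in VEH and 6.03 to 12.0 CPM in PB. First-set PB values against VEH, and the pooled values that include them, therefore carry the first-set difference. The first set of LEV held 23.4 to 47.5 CPM, also without overlap with PB, so values of PB against LEV carry it too. Its part in any of these was not tested. PB animal 2 held the lowest PB value of Unc13a, Snap25, Cplx2 and Cplx3, and results that changed without it are given with and without it. Values below are normalized counts per transcript, which serve to compare animals for 1 gene and not levels between genes. Differences are log2 fold changes with their standard error (SE). They were tested in edgeR by quasi-likelihood, and p was adjusted over 13062 transcripts after Benjamini and Hochberg, with a threshold of 0.05. A count in bulk tissue cannot tell fewer cells of a type from less RNA per cell.

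After PB, Cplx1, Vamp1 and Vamp2 fell, no member rose by the test, and the other 6 distinct transcripts did not pass. After LEV, 0 of the 9 passed by edgeR or by DESeq2, and 1 (Cplx2) had an unadjusted p under 0.05. Over all 13062 tested transcripts 1 (0.00766%) passed after LEV in edgeR, and 763 had an unadjusted p under 0.05. The background was 5.39% of all tested transcripts called between PB and VEH in either direction and 3.46% called lower after PB, beside 3 of 9 distinct transcripts of the members. The median log2 fold change of the 9 was -0.12 after PB and 0.01 after LEV, while the median over all tested transcripts was 0.00 in each. None of the changes that passed reached the fold limit that the study set beside its threshold. Of the 9 transcripts, 8 had a negative PB value, and Cplx3 was the exception.

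**Figure D1:**
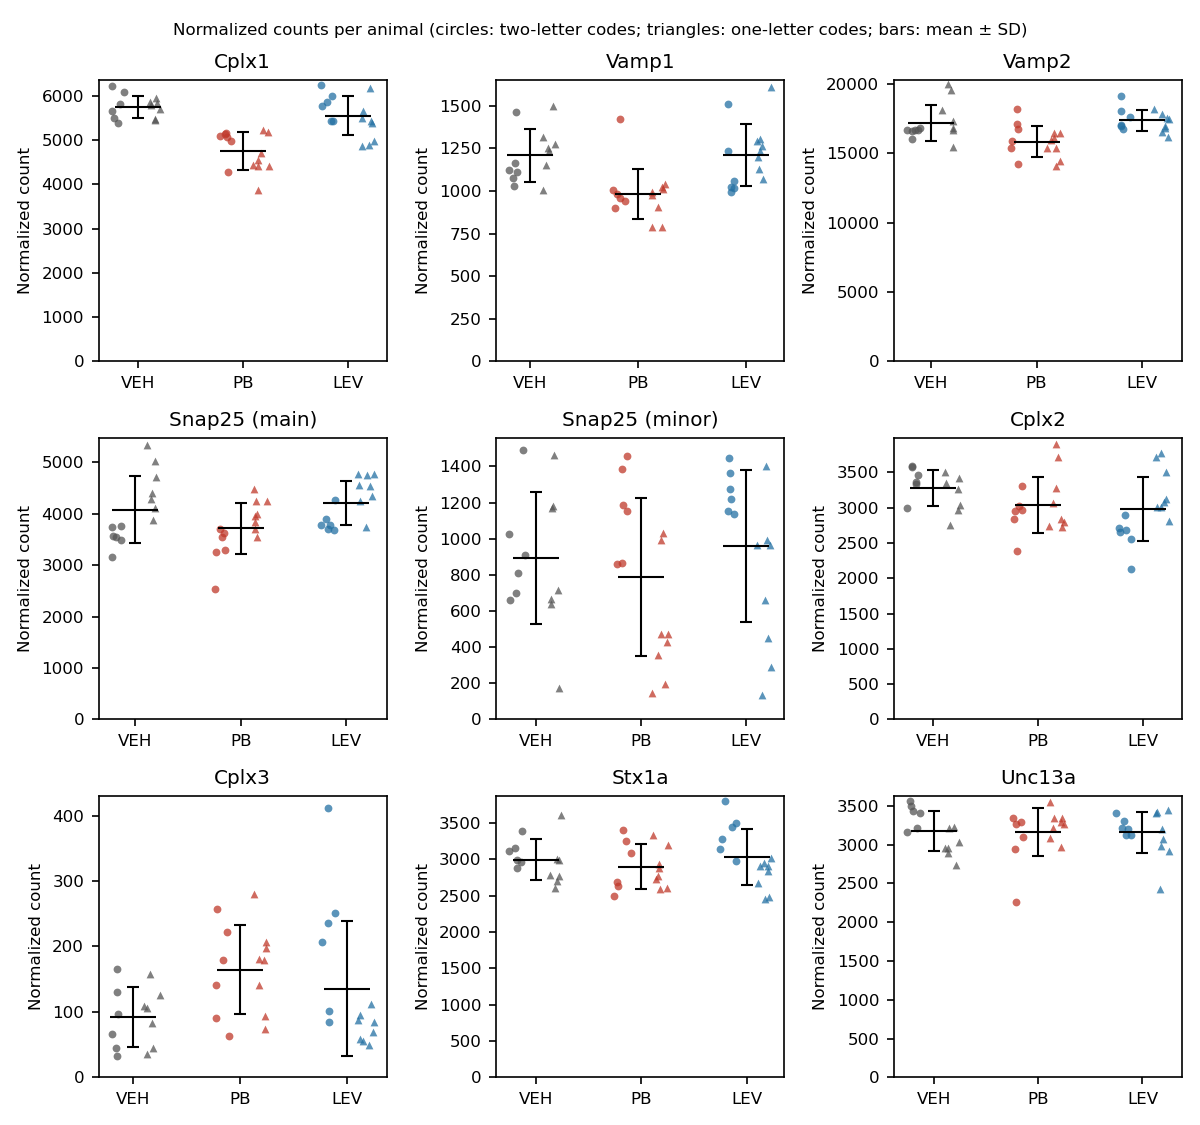
Normalized counts of the 9 distinct transcripts in each of the 13 VEH, 14 PB and 14 LEV animals, 1 panel per transcript with its own axis from 0. Circles are animals 1 to 6, triangles animals 7 to 14, and bars the mean ± SD. All PB animals lie below all VEH animals for Cplx1 (at most 5230 against at least 5395), and the groups overlap in every other panel.

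Cplx1 (complexin 1, NM_022864, chromosome 14 of rn6, 2196289 to 2226611) showed the clearest difference. Its normalized counts had a lowest value of 5395, a median of 5790 and a highest value of 6216 in VEH animals. In PB animals the corresponding values were 3883, 4847 and 5230. No PB animal reached the lowest VEH animal, and Cplx1 was the 1 transcript of 13062 (0.00766%) whose PB and VEH animals did not overlap. The log2 fold change was -0.27 (SE 0.04, edgeR adjusted p = 5.08e-05), which on the linear scale is -17.2% with a 95% interval of -21.6% to -12.6%. By unadjusted p it ranked 2 among all tested transcripts. Against the VEH mean of its own set, every one of the 14 PB animals was lower. The log2 fold change was -0.22 in the first set and -0.31 in the second, a difference of -0.09 (SE 0.08, 95% interval -0.25 to 0.07).

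LEV animals had Cplx1 counts of 4874, 5479 and 6244 at the lowest, median and highest, which spanned the VEH range and went below it. LEV differed from VEH by -0.05 (SE 0.04, edgeR adjusted p = 0.923). PB was lower than LEV by 0.22 on the log2 scale (SE 0.04, edgeR adjusted p = 0.00053), and the LEV mean of the same set lay above all 14 PB animals. In that comparison 4.45% of all transcripts were called and 2.78% were called lower after PB, beside 4 of the 9 distinct transcripts of the members (Cplx1, Vamp1, Vamp2 and Snap25).

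Vamp1 (synaptobrevin 1, NM_013090, chromosome 4, 157726941 to 157733645) had counts of 1004, 1167 and 1501 at the lowest, median and highest in VEH. The PB values were 789, 980 and 1422, and the LEV values were 993, 1218 and 1610. The PB and VEH groups overlapped, with PB animals 5, 6, 8, 11 and 13 above the lowest VEH animal. Animal 5 was at the top of the PB range, and the median PB animal lay under the lowest VEH animal. The log2 fold change was -0.30 after PB (SE 0.07, edgeR adjusted p = 0.0134, 13 of 14 animals lower than the VEH mean of their set) and 0.00 after LEV (SE 0.07, edgeR adjusted p = 0.999). PB was below LEV by the same amount (log2 fold change -0.30, edgeR adjusted p = 0.0139), a call lost in 1 of 9 alternative ways of processing. The PB value was -0.17 (SE 0.11) in the first set and -0.41 (SE 0.10) in the second, and these did not differ by the test (edgeR adjusted p = 0.576). With the excluded VEH animal kept in, the PB value was -0.26 and did not pass (edgeR adjusted p = 0.060).

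Vamp2 (synaptobrevin 2, NM_012663, chromosome 10, 55675537 to 55679406), the vesicle SNARE of most forebrain synapses, had counts of 15483, 16696 and 20000 in VEH animals. The PB values were 14100, 15955 and 18172, and the LEV values 16163, 17287 and 19176. The groups overlapped widely, and 11 of 14 PB animals were under the VEH mean of their set. The log2 fold change after PB was -0.12 (SE 0.04, edgeR adjusted p = 0.0459), and after LEV it was 0.01 (SE 0.04, edgeR adjusted p = 0.989). The PB call is close to the threshold. With 1 animal left out at a time, 22 of 41 fits lost it (edgeR adjusted p from 0.05003 to 0.101 in these 22), namely without VEH animal 3 or any of 9 to 14, PB animal 2, 3, 5 or any of 7 to 11, or LEV animal 1, 2, 3, 4, 7, 11 or 13. It was also lost with batch-by-treatment terms (edgeR adjusted p = 0.058), without a term for the form of code (edgeR adjusted p = 0.0596), with the animal number as a block (edgeR adjusted p = 0.0995) and with all 14 VEH animals (edgeR adjusted p = 0.133). The PB value was -0.03 (SE 0.05) in the first set and -0.19 (SE 0.05) in the second. Between PB and LEV the value was -0.13 (SE 0.04, edgeR adjusted p = 0.0255, 13 of 14 PB animals below). That call was lost without PB animal 7 (edgeR adjusted p = 0.0564) and in 2 of 9 alternative ways of processing.

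The windows upstream of the 3 genes that fell are shown with that of Cplx3, the member with a positive value, because the former passed in the same direction after PB. RefSeq sequences of the GRCr8 build were available for 7 of the 8 members and matched by symbol. Each is the 250 bases before the annotated start, read 5′ to 3′ along the gene. Capitals mark the GC box (GGGCGG, either strand) and, in Vamp1, the full cAMP response element (TGACGTCA).
Cplx1, chr14:1328823-1329072 (+ strand): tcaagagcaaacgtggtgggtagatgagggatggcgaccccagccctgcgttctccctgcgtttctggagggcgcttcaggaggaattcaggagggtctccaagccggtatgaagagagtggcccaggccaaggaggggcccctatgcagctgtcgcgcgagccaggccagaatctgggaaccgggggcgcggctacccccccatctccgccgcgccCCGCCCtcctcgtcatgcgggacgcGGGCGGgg
Vamp1, chr4:159698644-159698893 (+ strand): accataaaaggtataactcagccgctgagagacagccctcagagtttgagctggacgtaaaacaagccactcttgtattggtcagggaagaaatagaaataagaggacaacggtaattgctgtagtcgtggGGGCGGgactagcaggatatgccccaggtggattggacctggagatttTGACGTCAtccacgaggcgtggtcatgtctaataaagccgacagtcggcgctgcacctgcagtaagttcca
Vamp2, chr10:54292539-54292788 (+ strand): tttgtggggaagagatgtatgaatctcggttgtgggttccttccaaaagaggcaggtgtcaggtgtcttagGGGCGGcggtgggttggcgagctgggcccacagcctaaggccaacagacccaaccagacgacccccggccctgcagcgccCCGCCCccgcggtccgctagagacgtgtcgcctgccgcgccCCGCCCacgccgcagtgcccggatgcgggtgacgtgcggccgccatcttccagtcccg
Cplx3, chr8:66906201-66906450 (- strand): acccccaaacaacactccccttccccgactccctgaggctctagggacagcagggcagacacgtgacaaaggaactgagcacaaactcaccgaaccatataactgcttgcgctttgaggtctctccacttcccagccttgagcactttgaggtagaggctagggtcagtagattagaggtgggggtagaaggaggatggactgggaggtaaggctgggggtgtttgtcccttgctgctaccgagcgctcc
A GC box was found in 6 of the 7 member windows, Cplx3 being the one without, and in 30.5% of 33469 windows of the same length. The full cAMP response element was in the Vamp1 window alone among the members and in 1.59% of all windows. Its first 5 letters (TGACG, either strand, which the full element contains) were in 4 of 7 member windows and 18.2% of all. The TATA box (TATAAA) was in 0 of 7 and 12.9%, and the left end of the RE1 element (TTCAGCACC) in 0 of 7 and 0.305%. The GC content was 68.0% for Cplx1 and Vamp2, 50.4% for Vamp1 and 56.4% for Cplx3, against a median of 51.2% over all windows. These matches are letters in a window, and binding was not measured.

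Snap25 encodes a plasma membrane SNARE that lends helices to the bundle. Its main transcript (NM_001270575, with NM_030991 the same, chromosome 3, 129697408 to 129788418) had counts of 3152, 3867 and 5330 in VEH, 2537, 3697 and 4477 in PB, and 3680, 4260 and 4772 in LEV. The highest PB animal stayed below the highest LEV animal, but the ranges overlapped. Levels differed by set, with VEH means of 3540.5 in the first and 4535.9 in the second. In the first set PB ran from 2537 to 3694 and LEV from 3680 to 4266. In the second set PB ran from 3553 to 4477 and LEV from 3749 to 4772. PB differed from VEH by -0.14 (SE 0.05, edgeR adjusted p = 0.0845, 11 of 14 animals below), which did not pass, though it did without VEH animal 6 (adjusted p = 0.0492). PB was below LEV by 0.18 on the log2 scale (SE 0.05, edgeR adjusted p = 0.0236, 13 of 14 animals below). This call was lost without PB animal 7 (adjusted p = 0.0523) or LEV animal 2 (adjusted p = 0.0525). The LEV value against VEH was 0.04 (SE 0.05, edgeR adjusted p = 0.956). Against VEH, the PB value was -0.09 (SE 0.07) in the first set and -0.18 (SE 0.07) in the second.

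The minor Snap25 transcript (NM_001270576, starting at 129697679) varied widely between animals, and most in the second set. Its counts ran from 175 to 1490 in VEH, from 146 to 1456 in PB and from 135 to 1449 in LEV, an 8.52-fold, 9.94-fold and 10.8-fold range within a group. For VEH, PB and LEV the first-set ranges were 664 to 1490, 858 to 1456 and 1137 to 1449. The second-set ranges were 175 to 1462, 146 to 1032 and 135 to 1400. The pooled PB difference was -0.27 (SE 0.27, edgeR adjusted p = 0.624). It was 0.30 (SE 0.38) in the first set and -0.75 (SE 0.35) in the second. These sets differed by -1.06 (SE 0.52, edgeR p = 0.0491, adjusted p = 0.450), which did not pass. The E/M algorithm divides reads between transcripts that share exons, so the split among the Snap25 transcripts is uncertain. With the counts summed per symbol, Snap25 had a PB value of -0.14 (edgeR adjusted p = 0.0872) and a PB against LEV value of -0.20 (edgeR adjusted p = 0.0152).

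Stx1a and Unc13a, the syntaxin and the priming factor that acts on it, did not pass in any comparison. Stx1a (NM_053788, chromosome 12, 24682050 to 24710003) had a median of 2989 after VEH, 2827 after PB and 2958 after LEV, within a range of 2455 to 3802 over all animals. Its PB difference was -0.04 (SE 0.05, 95% interval -0.15 to 0.07, edgeR adjusted p = 0.724) and its LEV difference 0.02 (SE 0.05, 95% interval -0.09 to 0.12). Within the sets the PB value of Stx1a was -0.08 (SE 0.08) in the first and -0.02 (SE 0.07) in the second. Unc13a (NM_022861, chromosome 16, 20056398 to 20103946) had medians of 3207, 3266 and 3199 in VEH, PB and LEV. The lowest Unc13a value, 2265, was that of PB animal 2. The PB difference was 0.00 to 2 decimals (SE 0.05, 95% interval -0.10 to 0.10, edgeR adjusted p = 0.981) and 0.03 without that animal. Within the forms of code the Unc13a values pointed in opposite directions, -0.16 (SE 0.07) in the first set and 0.12 (SE 0.06) in the second. The difference between them was 0.27 (SE 0.09, p = 0.0046, edgeR adjusted p = 0.242) and did not pass.

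**Figure D2:**
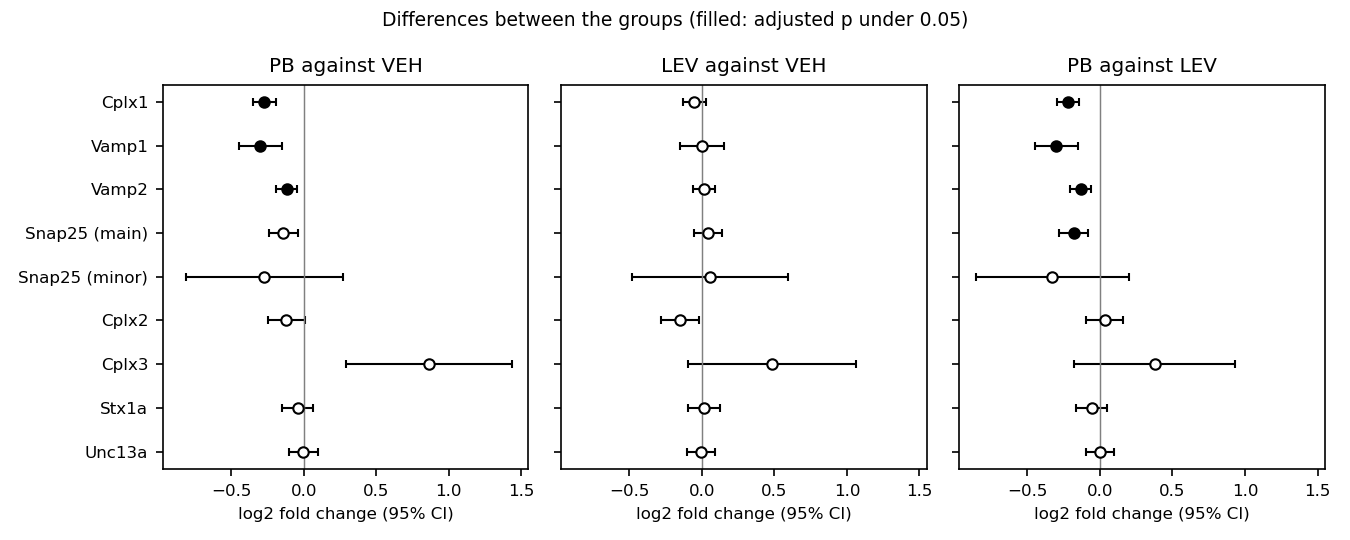
Log2 fold change with its 95% interval for each distinct transcript, for PB against VEH, LEV against VEH and PB against LEV, from edgeR. Filled points have an adjusted p under 0.05. These are Cplx1, Vamp1 and Vamp2 in the first panel, none in the second, and Cplx1, Vamp1, Vamp2 and Snap25 in the third, while the intervals of Stx1a and Unc13a cross 0 in all 3 panels.

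Cplx2 (complexin 2, NM_053878, chromosome 17, 10757782 to 10766254) had counts of 2760, 3356 and 3594 in VEH, 2390, 2956 and 3901 in PB, and 2134, 2952 and 3773 in LEV. The PB and LEV medians nearly coincided and lay below the VEH median, with ranges that overlapped on either side. Neither drug passed (PB -0.12, SE 0.06, edgeR adjusted p = 0.299, and LEV -0.15, SE 0.06, edgeR adjusted p = 0.806). Within the sets the PB value of Cplx2 was -0.22 (SE 0.09) in the first and -0.03 (SE 0.08) in the second. The LEV value was the single one among the members with an unadjusted p under 0.05 for that drug (p = 0.0228). The 2 forms of code differed here. In the first set the LEV counts of Cplx2 ran from 2134 to 2897 and the VEH counts from 2997 to 3594, with no overlap, and the LEV value was -0.38 (SE 0.09). The same lack of overlap held for 3.17% of all transcripts. In the second set the LEV counts ran from 2806 to 3773 and the VEH counts from 2760 to 3503, and the LEV value was 0.03 (SE 0.08). The difference between the forms was 0.41 (SE 0.11, p = 0.00102, edgeR adjusted p = 0.0739), which did not pass. The first set fitted alone gave -0.37 with an edgeR adjusted p of 0.00565, in a fit where 2.64% of all transcripts passed, and this set is described because of its Cplx2 values. Over all transcripts 0.842% passed the test of the LEV effect between forms and 0.0689% passed that of the PB effect, and 0 of the 9 member transcripts passed either. An unadjusted p under 0.05 was found in 2 of the 9 for LEV and 3 for PB, beside 1676 and 1450 of all 13062 transcripts (edgeR).

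**Figure D3:**
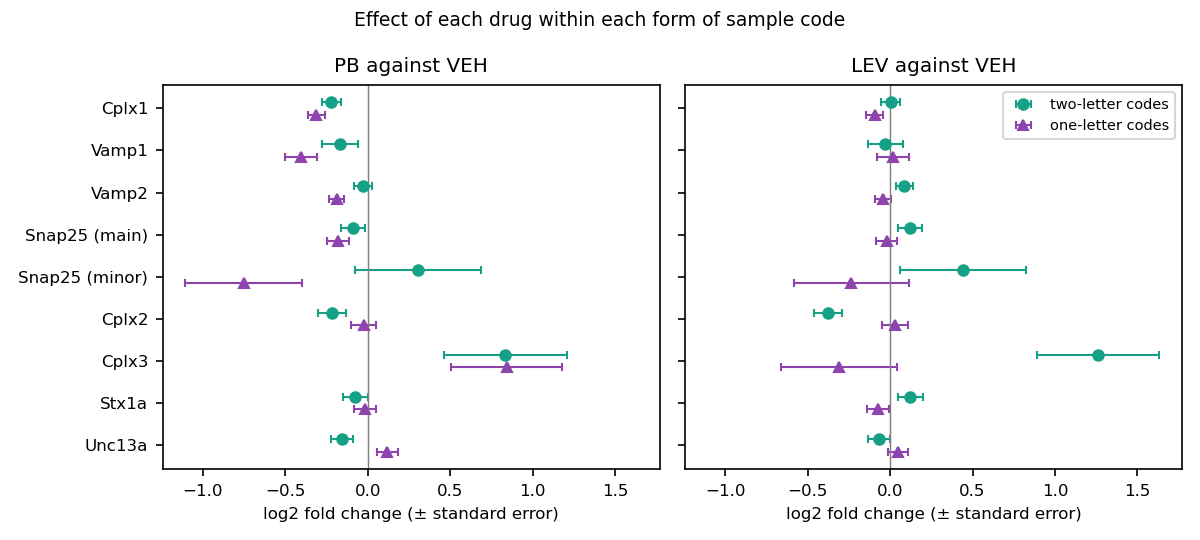
Log2 fold change ± SE of PB (left) and LEV (right) against VEH within each form of code, circles for animals 1 to 6 and triangles for animals 7 to 14. Cplx1 is negative after PB in both (-0.22 and -0.31), whereas Cplx2 and Cplx3 after LEV take different values in the 2 forms (-0.38 and 0.03, and 1.26 and -0.31).

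Because complexin 1 and complexin 2 bind the same SNARE bundle, the share of Cplx1 in the counts of the pair was also taken per animal, a measure that does not depend on library scaling. The mean share was 63.7% for VEH (SD 1.63, n = 13), 61.1% for PB (SD 3.10, n = 14) and 65.2% for LEV (SD 4.17, n = 14). The LEV mean joined unlike values, 69.0% ± 1.56 in the first set and 62.3% ± 2.88 in the second. In PB animals the share was 63.1% ± 1.40 in the first set and 59.6% ± 3.27 in the second, beside 63.1% ± 1.02 and 64.3% ± 1.90 in VEH animals. Of Vamp1 plus Vamp2, the share of Vamp1 was 6.57% (SD 0.745) for VEH, 5.85% (SD 0.889) for PB and 6.52% (SD 0.984) for LEV. The shares are given without a test.

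Cplx3 (complexin 3, NM_001109295, chromosome 8, 62379502 to 62386265) was the member with the fewest counts. VEH animals had a lowest value of 32.6, a median of 97.3 and a highest value of 165 normalized counts. PB animals had 63.0, 179 and 280, and LEV animals 49.4, 91.1 and 411. The median PB animal lay above the highest VEH animal, yet the ranges overlapped. The PB difference was 0.86 (SE 0.28, 95% interval 0.29 to 1.43), with 11 of 14 PB animals above the VEH mean of their set, and did not pass (edgeR adjusted p = 0.0626, DESeq2 adjusted p = 0.0501). It passed without VEH animal 9 (0.98, adjusted p = 0.0354), PB animal 2 (0.94, adjusted p = 0.0404), PB animal 5 (0.93, adjusted p = 0.0379) or LEV animal 5 (0.86, adjusted p = 0.0455). The PB value was 0.83 (SE 0.37) in the first set and 0.84 (SE 0.34) in the second.

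For LEV the Cplx3 values parted by form of code. The first set of the LEV group had counts from 84.4 to 411 and the second from 49.4 to 112. The LEV value was 1.26 (SE 0.37) in the first set and -0.31 (SE 0.35) in the second, a difference of -1.57 (SE 0.51, p = 0.00377, edgeR adjusted p = 0.139) that did not pass. Pooled, LEV differed from VEH by 0.48 (SE 0.29, edgeR adjusted p = 0.856), and PB from LEV by 0.38 (SE 0.27, edgeR adjusted p = 0.476).

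Cplx3 moved beside markers of subplate and deep cortical layers, tissue that adjoins the hippocampus. Of 8 such markers 6 were measured, none of them at 0 in all animals, and 0 of the 6 passed in any comparison (edgeR). An unadjusted p under 0.05 was found in 4 for PB, 3 for LEV and 0 between PB and LEV (edgeR). The same limit was met by 2639, 763 and 2565 of all 13062 transcripts in these comparisons. Their summed level was 167 to 231 CPM (median 206) in VEH, 195 to 311 (median 239) in PB and 196 to 289 (median 216) in LEV, and 6 of 6 had a positive PB value (median 0.21). Most of the sum came from Tle4 and Nr4a2, with means of 1197 and 748 normalized counts in VEH. Lpar1, Ccn2, Nxph4 and Foxp2 had 141, 107, 84.9 and 44.8. With treatment and form of code removed, Cplx3 and this sum had Pearson's r = 0.823 and Spearman's rho = 0.818 over 41 animals, given as a description of values that share a library. Without the 2 animals farthest from the centre of the sum r was 0.789, and it was 0.901 in the first set and 0.741 in the second. The part of this tissue in the Cplx3 difference was not tested.

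**Figure D4:**
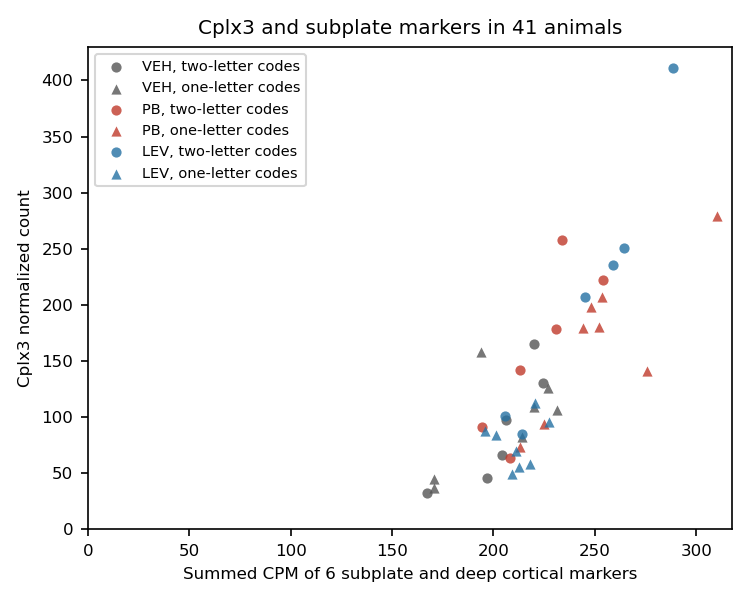
Normalized count of Cplx3 against the summed CPM of 6 subplate and deep cortical markers in 41 animals, coloured by group, circles for animals 1 to 6 and triangles for animals 7 to 14. Cplx3 is high where the markers are high, up to the LEV animal with 411 counts of Cplx3, which also has 289 CPM of the markers.

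Some neuronal markers were lower after PB, beside the falls of Cplx1, Vamp1 and Vamp2. Of 9 transcripts of 8 general neuronal markers 4 fell after PB, those of Nefl, Stmn2 and Eno2. The other 5 did not pass, among them Nefm at -0.19, Rbfox3 at -0.06 and Elavl4 at 0.09. Of the 9, 8 had a negative PB value and 5 had an unadjusted p under 0.05 (edgeR). The summed level of the list was 6585 to 7481 CPM in VEH, 5590 to 7069 in PB and 6455 to 7393 in LEV. Of 8 markers of GABA neurons 3 fell after PB (Sst, Pvalb and Slc32a1) and 5 did not pass. All 8 had a negative PB value, and 7 had an unadjusted p under 0.05 (edgeR). Over all 13062 transcripts 2639 had an unadjusted p under 0.05 between PB and VEH. The sum of the 8 was 485 to 694 CPM in VEH, 421 to 654 in PB and 571 to 721 in LEV, and no marker on either list was at 0 in all animals. No transcript of these lists passed after LEV. Across the 41 animals, with treatment and form of code removed, the neuronal sum had r = 0.536 with Cplx1, 0.574 with Vamp2 and 0.0273 with Vamp1, and the GABA neuron sum had r = 0.461, 0.417 and 0.111 with them. Other sums had values farther from 0 with Vamp2 and Vamp1. The hippocampal sum, which was 2012 to 3162 CPM in VEH and 1681 to 2614 in PB, had r = 0.728 with Vamp2. Nrgn made up most of that sum, with means of 19012 normalized counts in VEH and 15577 in PB. It was the 1 transcript of the list that passed after PB (edgeR adjusted p = 0.0163). The next largest, Pou3f1, had means of 1857 and 1733. For Vamp1, r was 0.552 with the oligodendrocyte sum and -0.480 with the subplate sum. These values share libraries and are a description. The part of any of these cells in the falls was not tested. Of the other lists, 1 of 9 hippocampal, 1 of 11 oligodendrocyte and 1 of 12 astrocyte transcripts fell after PB, 1 astrocyte and 2 of 4 thalamic transcripts rose, 0 of 6 microglial and 0 of 5 endothelial transcripts passed (1 and 2 at an unadjusted p under 0.05, edgeR), and all 3 tested skeletal muscle transcripts fell, in the pattern by set given above.

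The other genes of vesicle fusion were read from lists of 94 genes in the table, of which 92 were tested with 102 transcripts. After PB 17 of the 102 fell and 0 rose (16.7%, beside 5.39% of all transcripts), and after LEV 0 passed in edgeR, with 8 at an unadjusted p under 0.05 (0.00766% of all transcripts passed, which is 1 transcript). The SNAREs outside the 8 members gave 0 calls among 20 transcripts after PB in edgeR, 3 of them with an unadjusted p under 0.05, and a median log2 fold change of 0.01. Over all 13062 transcripts 2639 met that unadjusted limit between PB and VEH, and 763 between LEV and VEH.

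Proteins that assemble and dismantle the SNARE bundle fell in 3 of 22 transcripts after PB (median -0.08). Among them were Nsf, the ATPase that pulls spent SNARE bundles apart, at -0.20 (SE 0.04, edgeR adjusted p = 0.00391), and Napa, the adaptor through which it grips them, at -0.18 (SE 0.05, edgeR adjusted p = 0.0138). Priming, tethering and active zone proteins fell in 2 of 31 transcripts (median 0.00 to 2 decimals), beside 3.46% of all transcripts called lower after PB. These were Rab3a, a GTPase on the vesicle membrane, at -0.24 (SE 0.05, edgeR adjusted p = 0.00122), and Tprg1l at -0.13 (edgeR adjusted p = 0.0214).

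Calcium sensors and other vesicle proteins gave the most calls, 12 of 29 transcripts lower after PB (3.46% of all transcripts) with a list median of -0.13. Syp, synaptophysin of the vesicle membrane, had a mean of 18627 normalized counts in PB and 21534 in VEH (log2 fold change -0.21, SE 0.04, edgeR adjusted p = 0.000489). Syn1 and Syn2, synapsins that hold vesicles in reserve, were at -0.30 (SE 0.06, edgeR adjusted p = 0.00182) and -0.21 (SE 0.06, edgeR adjusted p = 0.028). Slc32a1, the vesicular GABA transporter, which is also on the GABA neuron list, was at -0.27 (SE 0.06, edgeR adjusted p = 0.00367). Syt11, Syt17, Synpr, Syngr3 and Syt3 fell by between 0.13 and 0.21 on the log2 scale. Syt1, the calcium sensor of fast release, was at -0.11 and did not pass (edgeR adjusted p = 0.151), and it is named for its role. Sv2a, the vesicle glycoprotein to which levetiracetam binds, had a mean of 6394 after VEH, 5874 after PB and 6446 after LEV. Its PB difference was -0.12 (SE 0.03, edgeR adjusted p = 0.019) and its LEV difference 0.01 (SE 0.03, edgeR adjusted p = 0.989).

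Between PB and LEV 12 of the 102 transcripts were lower after PB and 2 higher (13.7% called). Of all transcripts 4.45% were called in that comparison and 2.78% were lower after PB. The higher ones, named because of their values, were Doc2b, a calcium-binding protein of the priming machinery (0.16, edgeR adjusted p = 0.0433), and Syn3 (0.33, edgeR adjusted p = 0.0271). The comparisons of PB with VEH and of PB with LEV share the PB animals, and those of PB and of LEV with VEH share the VEH animals.

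**Figure D5:**
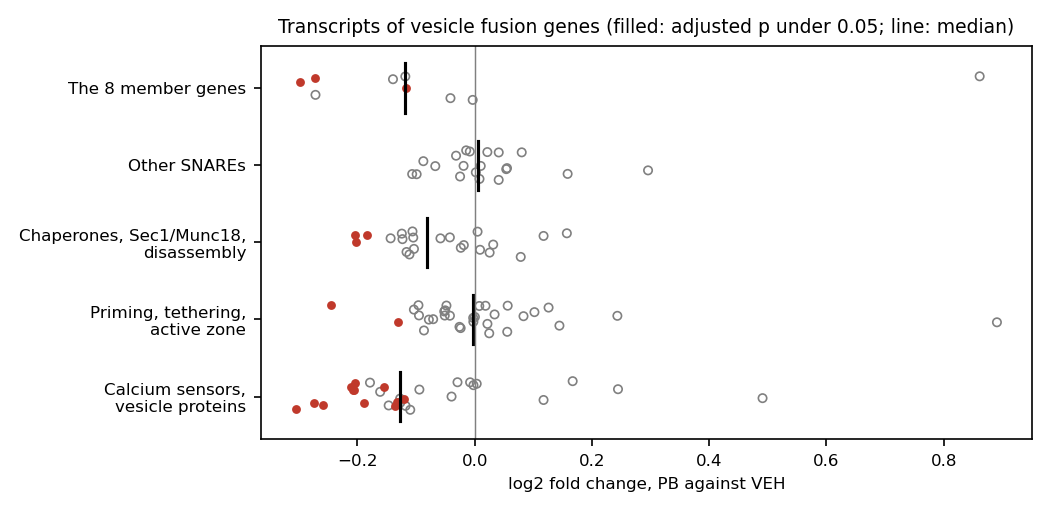
Log2 fold change between PB and VEH of each transcript of the 8 members (9 distinct) and of the lists of related genes (20, 22, 31 and 29 transcripts), with a bar at the median. Filled points have an adjusted p under 0.05 from edgeR. Every filled point is negative, and the list of calcium sensors and vesicle proteins has the most of them (12).

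The members did not vary together as a block from animal to animal. With treatment and form of code removed, Pearson's r over 41 animals was 0.641 between Vamp2 and Snap25, 0.517 between Cplx1 and Vamp1, 0.663 between Stx1a and Cplx3, and -0.449 between Vamp1 and Cplx3. These values share libraries and depth and are given as a description. The genes most like each member by the same measure were Ncdn (r = 0.872), Inpp5j and Mdh2 for Cplx1, and Wipf3 (r = 0.825), Hapln4 and Adcy9 for Vamp1. They included Ywhab (r = 0.777) and Gabarapl1 for Vamp2, and were Napg (r = 0.804), Got1 and Nptn for Snap25. Stx1a was most like Evl (r = 0.897), Igsf21 and Arl8a, and Unc13a most like Adgrl1 (r = 0.919), Srcin1 and Mapk8ip3. Cplx2 was most like Aldh5a1 (r = 0.791), Lsm11 and Sptb, and Cplx3 was most like genes that included Rgs4 (r = 0.900) and Pcdh9. The minor Snap25 transcript was most like Zdhhc1 (r = 0.682), Kdelr1 and Vhl.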

How the data were processed

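RNA of rat hippocampi was sequenced by the authors with 1 library per animal. Per the labels and the study's methods, reads were cleaned, aligned to rn6 with STAR 2.7.3a and quantified per RefSeq transcript by the E/M module of Partek. The deposited values are estimated counts before normalization, of which 13.7% are not whole. The authors' deposited table of their own comparisons (p-values, fold changes and group means) was not used here.

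Counts were rounded, and edgeR 4.0.16 (R 4.3.3) was used. TMM gave effective library sizes of 9588079 to 13786159, and filterByExpr by treatment kept 13062 transcripts. One quasi-likelihood model (glmQLFit, glmQLFTest) held treatment plus the form of sample code, in place of the authors' subtraction of batch and of batch-by-treatment effects. P-values were adjusted by Benjamini-Hochberg over all tested transcripts. Normalized counts are scaled to the mean effective library size, and log2 CPM used a prior count of 2. Alternatives included DESeq2 1.42.0, its size factors in edgeR, no filter, other batch terms, each form of code alone, the animal number as a block, the excluded animal, counts summed per symbol, and each animal left out. For the tests between forms of code, other size factors, no filter and the excluded animal were chosen after seeing the data.

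The members and lists were chosen with earlier results of these data known. Related genes were named when they were among the 15 with the smallest p between PB and VEH that passed in any comparison, and others as stated. Some of the genes these rules select are not reported here. Standard errors cover the spread between animals, and depth limits Cplx3 most.

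The animal numbers did not clearly pair the animals. Of 40 pairs with the same number 10 had a correlation of their deviations over 0.1, and 7 of 41 animals correlated best with an animal of their own number. The counts to be had from unpaired animals were not worked out, so these values cannot decide whether the numbers mark litters.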

Additional observations from a re-analysis of the deposited data

Results flagged for a closer look

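The VEH animal marked as excluded enters no comparison of the main fit. The study left it out for a higher average coverage and a lower genomic coverage than its other samples. Its normalized count of Unc13a was 4217 and that of Cplx2 was 4607, above the ranges of the 13 analysed VEH animals (2732 to 3560 and 2760 to 3594). Its Snap25 count of 1345 and its Cplx1 count of 4162 were below their VEH ranges (3152 to 5330 and 5395 to 6216), as were its counts of Vamp1, Vamp2, Stx1a and the minor Snap25 transcript, and its Cplx3 count of 130 lay within the VEH range. A signal in an animal outside the comparisons was the reason to list these, and no cause was tested.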

How the results depend on the processing

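The fall of Cplx1 after PB passed in each of the 10 alternatives (log2 fold change from -0.31 to -0.22) and in all 41 fits without 1 animal. Over the latter, the count of the members' distinct transcripts that passed lay between 2 and 4 for PB against VEH, at 0 for LEV against VEH, and between 2 and 4 for PB against LEV, where 2 is the count without PB animal 7. Animals 1 to 6 alone gave 1 transcript for each of the 3 comparisons, and keeping all 14 VEH animals gave 1 for PB against VEH. With the animal number as a replicate block, 2, 0 and 4 passed, Vamp2 being lost for PB, and the block changed no other of these calls. Snap25 lost its call between PB and LEV without a term for the form of code (edgeR adjusted p = 0.162) and in either set of animals alone. Batch-by-treatment terms brought Cplx3 past the threshold for PB (edgeR adjusted p = 0.0422), and animals 7 to 14 alone gave Cplx3 as 1.15 between PB and LEV (edgeR adjusted p = 0.0301).

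Signs turned only for values that had not passed. For Unc13a the PB value was 0.12 in animals 7 to 14 alone and 0.00052 with the block, the LEV value 0.049 in animals 7 to 14, and the value between PB and LEV -0.0011 without the filter, -0.010 with batch-by-treatment terms and -0.094 in animals 1 to 6. In animals 1 to 6 alone, LEV gave 0.0090 for Cplx1 and -0.023 for Vamp1 (-0.0049 with batch-by-treatment terms), PB gave 0.31 for the minor Snap25 transcript, and Cplx3 was -0.43 between PB and LEV. In animals 7 to 14 alone, LEV gave -0.045 for Vamp2, -0.073 for Stx1a, 0.029 for Cplx2, -0.023 for Snap25, -0.24 for its minor transcript and -0.31 for Cplx3, and PB against LEV gave 0.055 for Stx1a and -0.053 for Cplx2. With all 14 VEH animals the difference of the Cplx3 PB effect between forms of code was -0.058. Without 1 animal, signs turned for Unc13a (PB -0.020 to 0.032, LEV -0.022 to 0.018, PB against LEV -0.023 to 0.034) and, after LEV, for Stx1a (-0.0072 to 0.047), Vamp1 (-0.034 to 0.031) and the minor Snap25 transcript (-0.047 to 0.18). The cause was not tested in any of these.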
